A study of Amphimedon queenslandica with 43 samples.

Results

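The change in transcript levels with age was measured in larvae of the marine sponge Amphimedon queenslandica that were kept under constant light. The comparison set 7 larvae aged 9 hours post emergence (hpe) against 7 larvae aged 1 hpe, which are 14 of the 43 larvae of the series, picked by the age and light regime in their titles. Under constant light the larvae were held under a full-spectrum Lumilux T5 HE tube, at both ages, so this regime differed from the natural one in the source of the light as well as in its duration. The other larvae were 15 kept in the natural day-night cycle, of which 8 were 9 hpe and 7 were 1 hpe, and 14 kept in constant dark, with 7 of each age. Constant dark was daylight seen through a neutral density filter that let 6.6% of it pass, so these larvae were not in complete darkness. Daylight was thus the source of light in both constant dark and day-night, but not under constant light. All larvae were collected in a window of 30 minutes that opened at 11 am, and all were in their regime by 0.5 hpe. The 9-hpe larvae therefore differed from the 1-hpe larvae in age, in hours spent under the lamp and in the time of day at which they were sampled, and these cannot be told apart. Each library came from 1 separate larva. The labels give neither the parent of a larva nor a batch, and the p-values rest on the spread among the larvae sampled.

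Sponge larvae are brooded inside the parent, swim freely for some hours after they emerge, and then settle and turn into a juvenile sponge. A newly emerged larva does not yet settle in response to cues from a surface and is called precompetent, and an older larva that does so is called competent. The labels describe larvae of 1 hpe as precompetent and larvae of 9 hpe as competent. Larvae of this species swim away from light and steer with a ring of pigmented, ciliated cells at the posterior end. The study asked how light and the chemical cues of settlement act together, so the age change under an unbroken light regime is 1 of the comparisons its design holds.

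RNA was read by CEL-Seq2, a protocol for very small inputs in which a barcoded primer binds the poly(A) tail, so that each count marks the 3' end of a transcript and levels are not corrected for length. The deposited table lists counts for 47411 transcript models, of which 13526 had no count in the 14 constant-light larvae and 14188 passed the filter on low counts. The identifiers are not paired with gene names in the files and 0 of them matched the reference gene table, so models are given by identifier, no gene group or cell type marker was read out and no function is given. Whole larvae were sequenced, so fewer cells of a type and less RNA per cell cannot be told apart. Near-identical gene copies can share counts.

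The depth of the libraries did not separate the ages. Total counts were 3212744 ± 383430 at 9 hpe and 3164866 ± 240220 at 1 hpe (SD, n = 7 each), with a range of 2660350 to 3677302 at 9 hpe and 2794963 to 3515941 at 1 hpe. The difference in mean log10 total was 0.0049 (exact two-sided permutation test, adjusted p = 0.834 over 4 measures per larva). The number of models with a count, after each library was thinned to 2660350 counts, was 20419 ± 569 at 9 hpe and 20632 ± 374 at 1 hpe (exact permutation test, adjusted p = 0.556). The test did not separate these either.

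The 100 most abundant models of each larva took 12.8 ± 1.81% of its counts at 9 hpe and 15.04 ± 0.905% at 1 hpe (SD, n = 7 each). The ranges overlapped, at 11.5 to 16.8% for 9 hpe and 13.7 to 16.4% for 1 hpe, and the difference of -2.20 percentage points missed the threshold (exact permutation p = 0.0186, adjusted p = 0.0746). The overlap rested on replicate 7 of 9 hpe, which stood at 16.8%. Without it the difference was -2.85 points with an adjusted p of 0.00233 by the same exact test. The ages then no longer overlapped, so the unadjusted p was the smallest that test can give for the larvae left. That larva was singled out for the overlap it made, so the refit describes the overlap and does not test the difference. The smallest p that 3432 assignments of the 14 larvae can give is 0.000583.

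Some larvae stood apart from the rest of the series whatever their age. In a principal component analysis of all 43 larvae, the first component took 9.65% of the variance and separated the ages under constant light, with scores of 6.26 to 29.4 at 9 hpe and -32.5 to -13.7 at 1 hpe. The second component took 6.07% and set apart larvae of both ages. At its low end were 8 larvae with scores of at most -38.9, against at least -12.1 for every other larva. Replicates 2, 3, 5 and 7 of constant light at 9 hpe and replicate 7 of constant light at 1 hpe were among them, with 3 larvae of constant dark and 0 of day-night. A second set of 8 alike larvae lay at the other end, at 29.4 or more. It held 0 constant-light larvae of 9 hpe and replicates 1 to 3 of 1 hpe, beside 4 day-night larvae and 1 constant-dark larva. The 2 sets were thus shared unequally between the ages under constant light, and 3 larvae of 9 hpe and 3 of 1 hpe belonged to neither. What the alike larvae share was not tested, and the counts below are given with and without them.

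**Figure D1:**
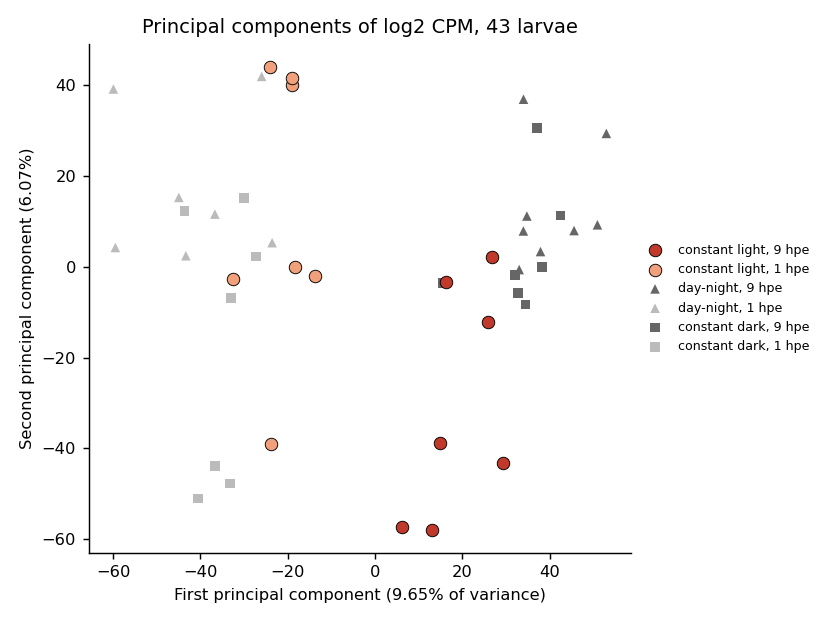
Scores of the 43 larvae on the first (x axis) and second (y axis) principal components of log2 CPM (a count relative to its library total), with constant-light larvae as circles coloured by age and the other regimes as grey symbols. The constant-light larvae of 9 hpe lie right of those of 1 hpe on the first component, at 6.26 to 29.4 against -32.5 to -13.7, and 4 larvae of 9 hpe and 1 of 1 hpe lie among the 8 larvae at the foot of the plot.

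Under constant light 867 of the 14188 tested models, or 6.11%, differed between 9 and 1 hpe at an adjusted p below 0.05 (edgeR quasi-likelihood test, Benjamini-Hochberg). Of these, 373 (2.63%) had risen and 494 (3.48%) had fallen at 9 hpe. Most changes were modest. The median log2 fold change was 0.86 among the risen models and -0.85 among the fallen ones, beside 0.00 over all tested models. A change of at least 2-fold was found in 151 risen and 199 fallen models, and one of at least 16-fold in 17 and 21. Without the 8 larvae at the low end of the second component the count of changed models was 237, of which 207 were among the 867. That fit lacked 4 larvae of 9 hpe and 1 of 1 hpe under constant light. Without the 16 larvae at both ends, which leaves 3 against 3 larvae under constant light, it was 114, of which 99 were among the 867. With the cluster of alike larvae as a term in the fit it was 412, of which 339 were among the 867.

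The size of the change was close to the same in the larvae that belonged to neither set. Among the 373 risen models the median difference in log2 CPM was 0.80 over those 3 against 3 larvae and 0.83 over all 7 against 7. Among the 494 fallen models it was -0.82 in both. The sign was kept in 370 of the 373 risen models and in 494 of the 494 fallen ones. These larvae were also among those in which the models were called, so the signs describe the calls and do not test them.

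Both directions moved a visible share of the larval transcripts. The risen models together took 35637 to 42735 CPM at 9 hpe (median 38414), against 20501 to 22507 CPM at 1 hpe (median 21370). The fallen models together took 79615 to 105270 CPM at 9 hpe (median 84204), against 128636 to 154359 CPM at 1 hpe (median 134175). The ages did not overlap in either sum, which follows from how the models were picked. The fallen models were also the more abundant ones, with a median level of 90.2 CPM, beside 43.6 CPM for the risen models and 17.5 CPM for all tested models.

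The calls were not spread evenly over abundance. The tested models were put in 4 classes of equal size by level. In the most abundant class, from 61.2 CPM upward, 143 models (4.03%) had risen and 282 (7.95%) had fallen. In the least abundant class, up to 5.36 CPM, 13 (0.367%) had risen and 50 (1.41%) had fallen. The standard error of each log2 fold change was worked back from the F statistic of its test. Its median was 0.17 in the highest class and 0.63 in the lowest, so only larger changes could pass in the lowest. The median change of the called models followed this, at 0.68 for risen and -0.57 for fallen models in the highest class and 3.07 and -2.85 in the lowest.

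A gap between the ages in every larva was less common than a call. All 7 larvae of 9 hpe lay above all 7 of 1 hpe in 108 of the 373 risen models, or 28.95%, and below them in 143 of the 494 fallen models, or 28.95%. Over all tested models the ages were apart in this way in 0.888% upward and 1.13% downward. A large change did not mean a clean gap. The 9-hpe and 1-hpe larvae were apart in 92 of the 238 changed models of 2- to 4-fold, but in only 6 of the 38 of at least 16-fold. Of these 38, limma voom also called 4, whereas it called 489 of the 517 models that changed by less than 2-fold. Apart from those 6, the models of at least 16-fold had ages that overlapped.

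Few models were switched fully on or off. Of the 867 changed models, 92.3% had a count in all 14 larvae, beside 84.6% of the tested models. Among the risen models 1 had no count in any larva of 1 hpe, out of 5 tested models of that kind. Among the fallen models 4 had none in any larva of 9 hpe, out of 13.

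**Figure D2:**
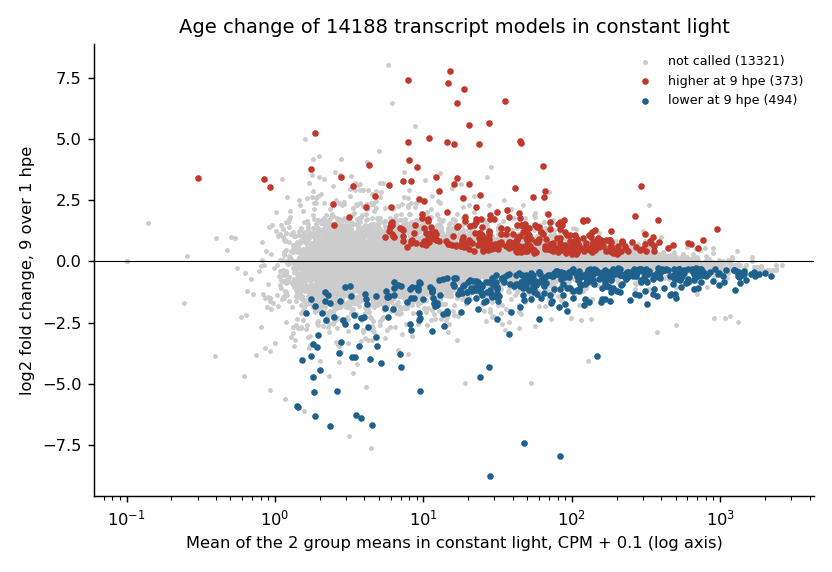
Log2 fold change of 9 over 1 hpe under constant light (y axis) against the mean of the 9-hpe and 1-hpe levels (x axis, CPM + 0.1, log scale) for the 14188 tested models, with the 373 risen and 494 fallen models coloured. The coloured points reach closer to 0 toward the right, where the standard error is smaller, and the smallest called changes were 0.29 and -0.28.

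Models were named by rule among those with an adjusted p below 0.05, at least 20 CPM on average at the higher age and no overlap between the ages, a condition met by 93 risen and 119 fallen models. In each direction the largest change and the smallest p were taken. CPM values below are scaled by TMM and are not corrected for length.

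Aqu2.1.21224_001 had the largest rise among the models that met this rule. It stood at 13.1, 37.8 and 58.4 CPM at 9 hpe under constant light (lowest, median and highest of 7 larvae), against 0, 0 and 0.748 CPM at 1 hpe. It was near the floor in every larva of 1 hpe, with 5 counts in all and none in 4 of them, and present in every larva of 9 hpe. The fitted log2 fold change reached 7.04 ± 0.86 (SE; adjusted p = 5.25e-07 by edgeR), a value that depends on how such low counts at 1 hpe are fitted. The rise was met again in the day-night larvae, which had 41.03 to 134 CPM at 9 hpe and 0 to 2.42 CPM at 1 hpe. In constant dark the model stayed near the floor at both ages, at 0 to 3.61 CPM at 9 hpe and 0 to 3.84 CPM at 1 hpe. The age change under constant light exceeded that in constant dark by 7.995 ± 1.20 on the log2 scale (edgeR adjusted p = 0.000106), and its difference from that in day-night was -0.02 (adjusted p = 0.987).

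Aqu2.1.34611_001 had the smallest p among the risen models. Under constant light it stood at 359, 478 and 722 CPM at 9 hpe, against 36.1, 62.5 and 92.7 CPM at 1 hpe. The lowest larva of 9 hpe was well above the highest of 1 hpe. The ages differed by 3.07 ± 0.23 in log2 (SE; adjusted p = 2.53e-12 by edgeR). Day-night larvae gave a log2 fold change of 3.09 ± 0.22 and constant-dark larvae one of 1.98 ± 0.22. The larvae of constant dark had 103 to 233 CPM at 1 hpe, all above those of constant light at that age, but the difference between the age changes of 1.08 ± 0.30 did not pass (edgeR adjusted p = 0.0609).

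Aqu2.1.29081_001 had the smallest p among the fallen models. It stood at 103, 112 and 168 CPM at 9 hpe under constant light, against 328, 359 and 434 CPM at 1 hpe. Every larva of 9 hpe was below every larva of 1 hpe, and both ages were tight. The log2 fold change of -1.57 ± 0.13 (SE; adjusted p = 3.72e-11 by edgeR) stood beside -1.84 ± 0.13 for day-night and -1.53 ± 0.13 for constant dark. Neither difference between regimes passed, at 0.27 ± 0.18 against day-night (edgeR adjusted p = 0.509) and -0.04 ± 0.18 against constant dark (adjusted p = 0.956).

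Aqu2.1.44088_001 had the largest fall among the models that met the rule, and shows how a few larvae can set such a value. It stood at 0.411, 3.11 and 4.13 CPM at 9 hpe, against 5.32, 7.87 and 146 CPM at 1 hpe. Replicates 1, 2 and 6 of 1 hpe had 146, 115 and 80.2 CPM, whereas the other 4 larvae of that age had at most 7.87 CPM, only just above the 9-hpe larvae. The fitted fall was -4.34 ± 1.22 in log2 (SE; adjusted p = 0.0248 by edgeR). The call was lost in 9 of 24 alternatives, among them the fit without the 8 low larvae (-4.05, edgeR adjusted p = 0.309), that without the 16 (-3.09, adjusted p = 0.292), that with the cluster term (-1.84, adjusted p = 0.497) and that without replicate 1 of 1 hpe (-3.83, adjusted p = 0.0583). The other 3 named models kept their call in all 24.

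**Figure D3:**
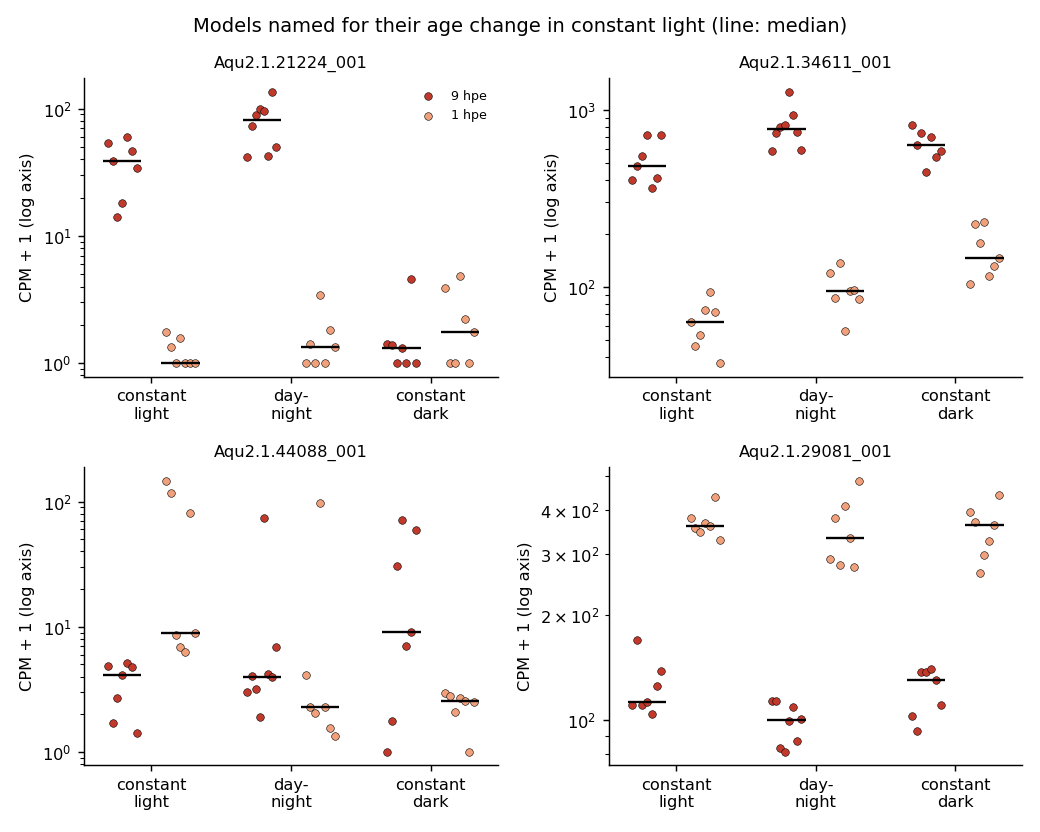
CPM + 1 (y axis, log scale) of the 4 models named for their age change, with 1 point per larva, regimes along the x axis, 9 hpe left of 1 hpe and a line at each median. Under constant light all 4 have the ages apart, but in Aqu2.1.44088_001 only 3 larvae of 1 hpe reach 80.2 CPM or more, and Aqu2.1.21224_001 stays at or below 3.84 CPM at both ages in constant dark.

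The age change was smaller in size under constant light than in the other regimes, by the following descriptions. The median absolute log2 fold change over the 14188 tested models was 0.33 under constant light and 0.45 in each of constant dark and day-night. The median standard errors were close, at 0.34, 0.34 and 0.33 in the same order of regimes. They were worked back from the F statistic and can be too small for changes near 0, so they cannot show that precision was equal. The same rule called 2838 models (20%) in constant dark and 3127 (22%) in day-night, beside the 867 (6.11%) of constant light. The ages did not overlap in 5.97% of the models in constant dark (2.23% upward and 3.74% downward) and in 5.72% in day-night (2.41% and 3.31%), beside 2.02% under constant light. Across the tested models the fold changes under constant light correlated with those in day-night at a Pearson r of 0.36 and with those in constant dark at 0.20. The fold changes of constant dark and day-night correlated at 0.47. These are descriptions over models, which are not independent, and the 3 age comparisons share no larva. Mean total counts were lower at 9 hpe than at 1 hpe in constant dark (2508172 against 3143107) and in day-night (2489125 against 2959936). Under constant light they were not (3212744 against 3164866). Whether depth bears on the gap between regimes was not tested.

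Lists picked in 1 regime were read in the larvae of the others, so the age changes picked on and read share no larva. The filter, the scaling and the estimate of spread came from all 43 larvae, so picking and reading were not wholly separate. A list can still favour a regime whose age change is like that of the regime it was picked in. The 1332 models that rose in constant dark had a median log2 fold change of 0.29 under constant light and 0.57 in day-night. The 1506 that fell in constant dark had -0.32 under constant light and -0.72 in day-night. In both lists the change under constant light was of the same sign and smaller.

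The lists picked in day-night gave the same order. The 1410 models that rose in day-night had a median of 0.31 under constant light and 0.56 in constant dark. The 1717 that fell there had -0.34 and -0.65. Across these 4 lists, 80.6 to 85.0% of the models had the same sign under constant light as in the regime they were picked in. The share that also passed under constant light was 14.3% of the models risen in constant dark and 23.3% of those fallen there, beside 50% and 66.6% in day-night. Over all tested models the share that passed in those directions was 2.63% and 3.48% under constant light, and 9.94% and 12.1% in day-night. In constant dark it was 9.39% and 10.6%. Lists picked under constant light were read as well. The 373 risen models had medians of 0.68 in day-night and 0.51 in constant dark, beside 0.86 under constant light, where they were picked. The 494 fallen ones had -0.85 and -0.78, beside -0.85. Whether a likeness of constant dark and day-night adds to the gap was not tested.

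The gap kept its direction in the fits that took account of the alike larvae. Without the 8 low larvae the models risen in constant dark had a median of 0.30 under constant light and 0.60 in day-night, and the fallen ones -0.38 and -0.68. Without the 16 larvae at both ends the values were 0.40 and 0.60 for the risen and -0.43 and -0.66 for the fallen models. With the cluster term they were 0.36 and 0.59, and -0.36 and -0.73. The models risen in day-night had a median of 0.31 under constant light and 0.55 in constant dark without the 8 low larvae, 0.36 and 0.54 without the 16, and 0.35 and 0.52 with the cluster term. For the models fallen in day-night the values were -0.37 and -0.63, -0.42 and -0.61, and -0.36 and -0.59 in the same order of fits. No test of the gap as a whole was made, and the differences below were tested model by model.

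The narrower age change was seen at both ends. The 1332 models risen in constant dark had a mean level of 4.53 to 4.82 on the log2 CPM scale in the constant-light larvae of 9 hpe, below the 4.86 to 4.99 of every day-night larva of that age. At 1 hpe the constant-light larvae stood at 4.24 to 4.49 and overlapped the day-night larvae at 4.02 to 4.43. The 1506 models fallen in constant dark stood at 5.76 to 6.10 in the constant-light larvae of 9 hpe and 5.60 to 5.84 in the day-night larvae. At 1 hpe they stood at 6.29 to 6.41 and 6.36 to 6.69. The means of the constant-light larvae thus lay inward of those of the day-night larvae at both ages, with overlap in all but the first of the 4 sets.

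The models that moved with age in both other regimes were read under constant light as well. Of the 666 models that rose in both constant dark and day-night, 91.1% were higher at 9 hpe under constant light, with a median log2 fold change of 0.38, beside 0.00 over all tested models. The test called 153 of them risen (22.97%, beside 2.63% of all tested models) and 0 fallen. Of the 1003 that fell in both, 91.9% were lower, with a median of -0.38, and 307 were called fallen (30.6%, beside 3.48% of all tested models) and 0 risen. Unadjusted p-values below 0.05 were found for 2760 tested models under constant light, or 19.5%.

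**Figure D4:**
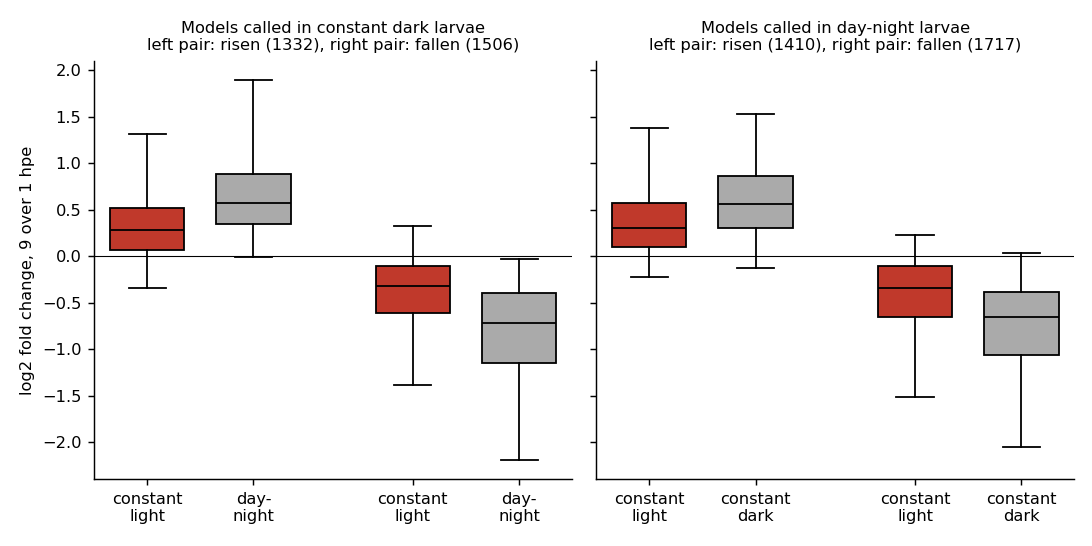
Log2 fold change of 9 over 1 hpe (y axis) of models called risen or fallen in constant dark (left) or day-night (right), read in constant light and in the regime not used for the call. Boxes span the quartiles with a line at the median, whiskers run from percentile 5 to percentile 95, and each constant-light median lies nearer 0 than its neighbour, for example 0.29 against 0.57 for the models risen in constant dark.

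The difference between age changes was tested directly in the same edgeR fit. The age change under constant light differed from that in day-night in 368 models (2.59%), being higher in 221 (1.56%) and lower in 147 (1.04%). It differed from that in constant dark in 148 models (1.04%), with 105 (0.74%) higher and 43 (0.303%) lower. Most passed as an age change in the other regime and not under constant light. Against day-night this held for 164 of the 221 models and 97 of the 147. Against constant dark it held for 66 of the 105 and 32 of the 43. In the 221 models the median age change was -0.07 under constant light and -1.04 in day-night, where 201 had fallen. In the 147 models it was 0.02 under constant light and 1.36 in day-night, where 130 had risen. Against constant dark the medians were 0.16 under constant light and -0.97 in constant dark for the 105 models, and -0.40 and 1.07 for the 43. These values are part of what was tested and describe the calls.

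The counts were lower in the fits that took account of the alike larvae. Those fits also held fewer larvae or more terms, and what lowered the counts was not tested. The difference from day-night was called in 131 models without the 8 low larvae, in 28 without the 16 and in 161 with the cluster term, of which 118, 27 and 129 were among the 368. The difference from constant dark was called in 21, 10 and 10 models, of which 17, 10 and 9 were among the 148. Leaving out single larvae moved the count against constant dark to between 74, without replicate 4 of constant dark at 9 hpe, and 249, without replicate 1 of that group.

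A call under constant light alone did not mean that the regimes differed. Of the 867 changed models, 204 (114 risen and 90 fallen) passed in neither other regime. A difference between age changes was called against day-night in 20 of these and against constant dark in 14, with 1 model in both, and no difference was called in 171. Over all tested models these differences were called in 2.59% and 1.04%, but the age change under constant light is part of each difference, so the shares are not independent. Among all 867, the age change differed from that in day-night in 95 models and from that in constant dark in 46.

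Models were also named by rule in each difference, among those with an adjusted p below 0.05. A mean of at least 20 CPM in at least 1 of the 4 groups was required. The smallest p and the largest difference in each direction were taken. Aqu2.1.32109_001 had the smallest p among models whose age change was higher under constant light than in day-night. It stood at 218, 279 and 331 CPM at 9 hpe under constant light, against 378, 561 and 985 CPM at 1 hpe. In day-night it had 53.5, 70.5 and 83.3 CPM at 9 hpe, against 704, 883 and 1226 CPM at 1 hpe. It fell in both regimes without overlap, but the constant-light larvae of 9 hpe all lay above the day-night larvae of that age and those of 1 hpe overlapped them. The log2 fold change was -1.07 ± 0.18 under constant light and -3.69 ± 0.19 in day-night, a difference of 2.62 ± 0.26 (SE; edgeR adjusted p = 1.96e-08). In constant dark it was -3.87 ± 0.21, and the difference was 2.80 ± 0.27 (edgeR adjusted p = 3.3e-09).

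Aqu2.1.32921_001 had the smallest p against constant dark. It stood at 58.6, 149.6 and 244 CPM at 9 hpe under constant light, against 163, 240.4 and 311 CPM at 1 hpe. In constant dark it had 8.08, 11.8 and 19.8 CPM at 9 hpe, against 139, 287 and 420.4 CPM at 1 hpe. The ages overlapped under constant light and were far apart in constant dark. The log2 fold change was -0.61 ± 0.25 under constant light (edgeR adjusted p = 0.142) and -4.48 ± 0.29 in constant dark, a difference of 3.87 ± 0.36 (adjusted p = 3.3e-09). The day-night larvae lay between, with 34.99 to 104 CPM at 9 hpe and a log2 fold change of -2.29 ± 0.25. The difference from them was 1.69 ± 0.34 (edgeR adjusted p = 0.00321).

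Aqu2.1.29913_001 had the smallest p among models whose age change was lower under constant light than in day-night. It stood at 64.5, 87.4 and 108 CPM at 9 hpe under constant light, against 33.4, 44.04 and 62.9 CPM at 1 hpe. In day-night it had 255, 287 and 383 CPM at 9 hpe, against 24.002, 34.3 and 52.6 CPM at 1 hpe. It rose in both without overlap, but far less under constant light, with a log2 fold change of 0.90 ± 0.16 beside 3.11 ± 0.17 and a difference of -2.21 ± 0.22 (SE; edgeR adjusted p = 1.96e-08). Constant dark gave 1.09 ± 0.16, and the difference of -0.18 ± 0.22 from it did not pass (edgeR adjusted p = 0.755).

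Aqu2.1.40667_001 had the smallest p among models whose age change was lower than in constant dark. It stood at 3.74, 8.62 and 21.2 CPM at 9 hpe under constant light, against 2.505, 11.8 and 24.9 CPM at 1 hpe. In constant dark it had 80.6, 143 and 250.1 CPM at 9 hpe, against 2.65, 6.76 and 11.5 CPM at 1 hpe. The ages overlapped throughout under constant light, and in constant dark every larva of 9 hpe was above every larva of 1 hpe. Under constant light the log2 fold change was -0.47 ± 0.43 (edgeR adjusted p = 0.601). The model rose by 4.41 ± 0.48 on that scale in constant dark. It rose by 3.56 ± 0.45 in day-night, where larvae had 67.6 to 195 CPM at 9 hpe and 1.72 to 22.1 CPM at 1 hpe. The differences were -4.88 ± 0.63 (edgeR adjusted p = 3.27e-06) and -4.04 ± 0.61 (adjusted p = 8.55e-05). These 4 models kept the call they were named for in all the alternatives that were fitted.

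The largest differences by size among the models open to the naming rule were of another kind, and rested on a few larvae. Aqu2.1.33376_001, with a difference from day-night of 9.75 ± 1.78 (SE; edgeR adjusted p = 0.00105), stood at 1.29, 4.74 and 207 CPM at 9 hpe under constant light, against 1.37, 2.64 and 7.95 CPM at 1 hpe. Only replicates 2 and 7 of 9 hpe, at 141 and 207 CPM, exceeded 8.42 CPM. In day-night it had 1.61, 5.32 and 22.2 CPM at 9 hpe, against 3.75, 7.23 and 1134 CPM at 1 hpe. The call was lost with limma voom (adjusted p = 0.425), in the edgeR fit without the 16 larvae (adjusted p = 0.376) and in that with a replicate block among only the groups compared (adjusted p = 0.0631).

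Aqu2.1.43252_001, with a difference from day-night of -9.35 ± 2.67 (SE; edgeR adjusted p = 0.0460), stood at 0, 0.312 and 1.03 CPM at 9 hpe under constant light, against 0, 112 and 201 CPM at 1 hpe. In day-night it had 0, 0.687 and 268 CPM at 9 hpe, against 0, 0.341 and 104 CPM at 1 hpe. At least 1 larva was far above the floor and at least 1 was at it in 3 of these 4 groups. The call was lost in 26 of 39 alternatives, which include leaving out any 1 of the 7 larvae of constant light at 9 hpe.

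Aqu2.1.15450_001, with a difference from constant dark of 10.77 ± 1.77 (SE; edgeR adjusted p = 0.000532), stood at 1.56, 20.4 and 157 CPM at 9 hpe under constant light, against 0.328, 1.17 and 2.25 CPM at 1 hpe. In constant dark it had 0.378, 0.513 and 2.98 CPM at 9 hpe, against 0.729, 17.5 and 228 CPM at 1 hpe. The groups overlapped in both regimes, and the call was lost with limma voom (adjusted p = 0.172), in the edgeR fit without the 16 larvae (adjusted p = 0.378) and in that with the cluster term (adjusted p = 0.419). Aqu2.1.44088_001, described above, had the largest difference of the other sign, at -8.47 ± 1.75 (edgeR adjusted p = 0.0104). It had 0, 8.13 and 69.9 CPM in constant dark at 9 hpe, against 0, 1.54 and 1.93 CPM at 1 hpe, and the call was lost with limma voom (adjusted p = 0.167) and in the edgeR fits without the 8 low larvae (adjusted p = 0.243), without the 16 (adjusted p = 0.286) and with the cluster term, where the difference was -3.62 (adjusted p = 0.679).

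**Figure D5:**
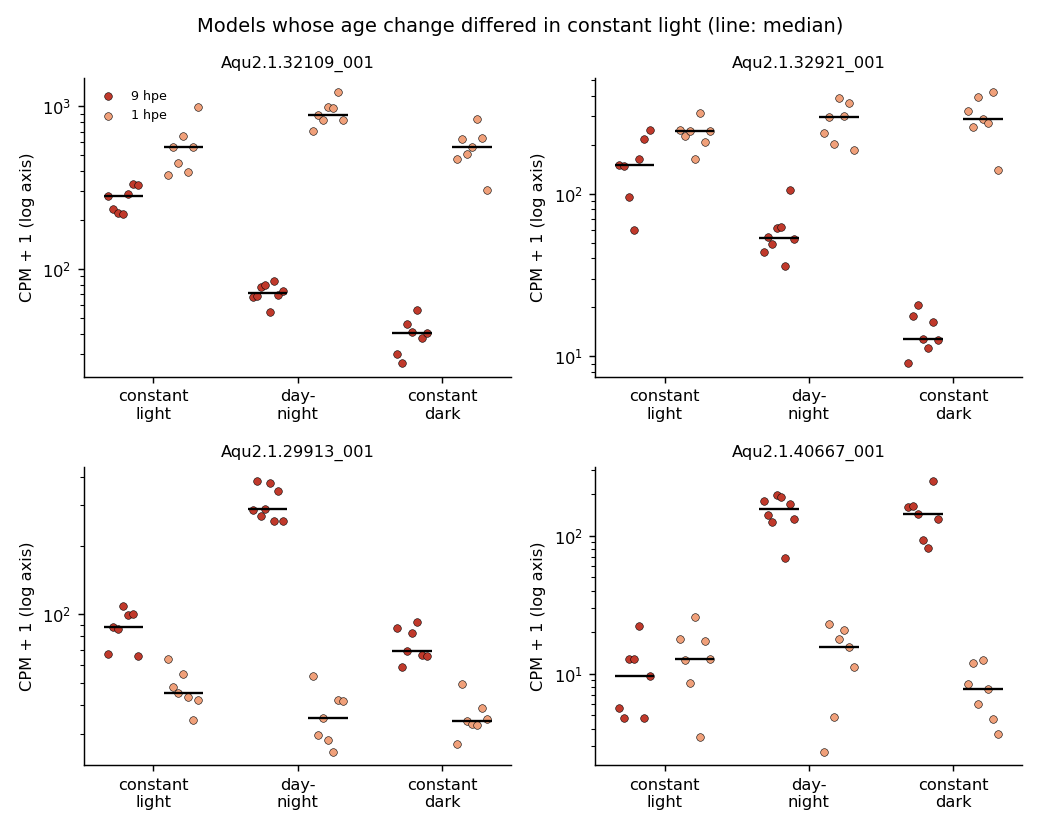
CPM + 1 (y axis, log scale) of the 4 models with the smallest p in the differences between age changes, with 1 point per larva, regimes along the x axis, 9 hpe left of 1 hpe and a line at each median. In Aqu2.1.32109_001 the constant-light larvae of 9 hpe keep 218 CPM or more while those of day-night stay at 83.3 CPM or less, and in Aqu2.1.40667_001 the rise seen in day-night and constant dark is not seen under constant light.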

How the data were processed

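Transcripts of 43 single larvae were counted, of which the 14 of constant light are the subject here. The authors deposited raw counts per transcript model from CEL-Seq2, per the labels' protocols, with spike-in and bacterial features left out per the file name. The sources used here do not give the aligner, the counter or the genome build. The highest count in the table was 8192, and 6 tested models reached 8000 in a constant-light larva, so their changes may be understated. The authors' normalized table was not used. Groups were taken from the titles, and 0 columns were left unmapped.

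Counts were filtered with filterByExpr (minimum count 10), scaled by TMM and fitted with edgeR 4.0.16 (R 4.3.3) by its robust quasi-likelihood method with 6 group means, so that all larvae share the estimate of spread. P-values were adjusted by Benjamini-Hochberg over 14188 models with a threshold of 0.05. Standard errors are the absolute log2 fold change over the square root of the F statistic, and were not estimated separately. In Aqu2.1.21224_001 this gave 0.17 for the difference of -0.02 from day-night, beside 0.86 and 0.81 for the 2 age changes. Standard errors of changes near 0 can thus be too small. Measures per larva were compared by exact permutation. On simulated counts with 200 changed models at this comparison's size, 37.0% of 2-fold and 63.0% of 4-fold changes were recovered among 14188 models. The simulated larvae were independent and held no sets of alike larvae. Fewer models were changed in them than the 867 called under constant light. These shares thus need not hold for the real larvae. Alternatives used limma 3.58.1 and DESeq2 1.42.0, other filters and scalings, fewer larvae, a term for clusters of alike larvae (tree height 0.9) and a replicate block. Replicate numbers did not pair the larvae. The comparison, the naming rule (at most 2 models per direction, given with the results) and the lists were chosen with earlier results of these data known. The gene lists could not be matched to identifiers and were not analysed here. Values with 1 larva removed are leave-one-out refits.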

Additional observations from a re-analysis of the deposited data

Results flagged for a closer look

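A single larva stood far from the rest in 4 of the 46 sets of values checked, each of 1 measure or 1 named model in 1 group. The cut-off gives about 1 in 20 for normally distributed values, which CPM need not be. Replicate 7 of constant light at 9 hpe held 16.8% of its counts in its 100 most abundant models. The other 3 were single high larvae, of Aqu2.1.33376_001 in day-night at 9 hpe (22.2 CPM), of Aqu2.1.43252_001 in day-night at 1 hpe (104 CPM) and of Aqu2.1.15450_001 in constant dark at 1 hpe (228 CPM). All 3 models had been named for the size of a difference, a choice that favours such larvae.

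The age change under constant light differed from that of another regime, by the edgeR test of the difference, in 9 named models. Against constant dark the log2 difference was 7.995 in Aqu2.1.21224_001, -8.47 in Aqu2.1.44088_001, 2.80 in Aqu2.1.32109_001, 6.82 in Aqu2.1.33376_001, 3.87 in Aqu2.1.32921_001, 10.77 in Aqu2.1.15450_001 and -4.88 in Aqu2.1.40667_001. Against day-night it was 2.62 in Aqu2.1.32109_001, 9.75 in Aqu2.1.33376_001, -2.21 in Aqu2.1.29913_001, -9.35 in Aqu2.1.43252_001, 1.69 in Aqu2.1.32921_001, 6.90 in Aqu2.1.15450_001 and -4.04 in Aqu2.1.40667_001. The models were named for these differences or for their age change.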

How the results depend on the processing

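The cause of the shifts below was not tested unless named. The counts of changed, risen and fallen models under constant light (867, 373 and 494) were 876, 361 and 515 with median-of-ratios scaling and 890, 368 and 522 with limma voom. They were 416, 177 and 239 with no filter on low counts, 581, 246 and 335 with only the groups compared, 237, 111 and 126 without the 8 low larvae, 114, 42 and 72 without the 16 larvae at both ends (chosen after seeing the data), and 412, 184 and 228 with the cluster term. By construction they fell to 350, 151 and 199 at 2-fold or more and to 330, 140 and 190 at an adjusted p below 0.01. DESeq2 gave 1210 changed models. Leaving out 1 larva gave 653 to 837 changed, 279 to 364 risen and 368 to 507 fallen models.

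The difference from day-night (368 models) became 604 with DESeq2, 146 without the filter, 131 without the 8 low larvae, 28 without the 16 and 161 with the cluster term, and 263 to 440 with 1 larva left out. That from constant dark (148) became 388, 61, 21, 10 and 10 in the same order, and 74 to 249. Leaving out replicate 1, 2 or 3 of constant light at 1 hpe gave 75, 84 or 96, replicate 2, 5 or 7 of constant light at 9 hpe 86, 244 or 83, replicate 6 of constant dark at 1 hpe 84 and replicate 7 of constant dark at 9 hpe 97.

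Same-numbered larvae deviated from their groups with correlations of -0.03 to 0.11, and 1 of 7 larvae of 9 hpe correlated best with its own number, so numbers do not pair larvae. The replicate block was fitted among only the groups compared and gave 201 changed, 77 risen and 124 fallen models, and 142 and 59 differences from day-night and constant dark. The same larvae without the block gave 581, 246 and 335, and 287 and 138.

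The difference in the share of the 100 most abundant models passed without the low larvae (-3.23 points, exact permutation adjusted p = 0.0476) and for the 500 most abundant (-3.59 points, adjusted p = 0.0490), and was -2.85 to -1.97 points with 1 larva left out. Without the low larvae the ages did not overlap, so the unadjusted p was the smallest the exact test can give for the larvae left. Of 12 named entries, 7 kept their call in every alternative fitted. Of their 404 refits 45 lost the call and 0 turned the sign. Standard errors were larger in models of low level, where only larger changes passed. Whether depth set this was not tested.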

Other observations

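Of the 363 tested models with identifiers starting TCONS, 4 had risen (1.10%) and 6 had fallen (1.65%), beside 2.63% and 3.48% of all tested models. Calls were rarer in models of low level, and whether level bears on these shares was not tested. Their share of a larva's counts was 0.684 ± 0.0436% at 9 hpe and 0.660 ± 0.0562% at 1 hpe under constant light (SD, n = 7 each; exact two-sided permutation test, adjusted p = 0.556 over 4 measures).

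Among 7934 pairs of tested models with consecutive numbers, both had risen in 14 pairs, both had fallen in 36 and the directions were opposite in 15. After a changed model, the next number had changed the same way in 8.55% of 585 pairs. After any tested model the next had changed in either direction in 7.23%, so these shares are of unlike kinds. In a single direction, 2.63% of all tested models had risen and 3.48% had fallen. What consecutive numbers share was not tested.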
